A study of Saccharomyces cerevisiae with 58 samples.

Results

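The general stress response of budding yeast is a set of genes that many unlike stresses and the end of growth turn up together. The 36 genes described here were taken by name from a list of well-known members of that response, and all 36 of 36 had a probe set among the 5449 named genes of the arrays. Msn2 and Msn4, a related pair of zinc finger factors, drive most such genes through stress response elements in their promoters, and protein kinase A holds these factors back while glucose is plentiful. The products detoxify oxidants and aldehydes, make glycerol, NADPH and trehalose, and guard membranes and the cell wall. In wild-type cells the level of these transcripts is known to be low during fast growth on glucose.

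RNA was measured on 58 Affymetrix arrays from 4 cultures, 2 of the wild type and 2 of a B-cyclin mutant. The wild type was BF264-15DU MATa with bar1, a strain whose label lists loss of the protease that degrades alpha-factor. The label of the mutant gives the same BF264-15DU MATa background but lists no bar1, and adds all 6 B-type cyclin genes, CLB1 to CLB6, disrupted by marker genes, and a copy of CLB1 driven by the GAL1 promoter, which dextrose represses. Early G1 cells of both strains were collected by elutriation, a size-based sorting of cells, and both strains grew in dextrose medium with sorbitol, an osmolyte. Wild-type culture 1 (14 arrays) and mutant culture 2 (15 arrays) were sampled from 30 to 254 min. Wild-type culture 2 (14 arrays) and mutant culture 1 (15 arrays) were sampled from 38 to 262 min, so strains are set side by side at equal times only within these pairs.

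Values are log2(intensity + 1) of each probe set, and the error of every comparison rests on the culture (n = 2 per strain). Each culture was summarised in an early window of its 2 arrays before 62 min, a middle window of 4 arrays between 94 and 150 min and a late window of 4 arrays from 206 min on. The early fall is the middle minus the early level and the late rise is the late minus the middle level. A gene was called where limma gave a Benjamini-Hochberg adjusted p under 0.05 over all 5449 genes. Array medians lay between 10.79 and 10.92, so the scale was alike on all arrays. Signals of probe sets for genes outside the annotation put the background at 9.06. Of the 36 members, 32 had a mean above background, 17 were above it on all arrays, and MOH1 was above it on none. BAR1, the gene of the alpha-factor protease, read 8.11 and 7.95 in the early window of the wild-type cultures, below background, against 10.46 and 10.50 in the mutant cultures, and it was called higher in the mutant in all 3 windows. By label and by this signal the strains differ at BAR1 as well as in the cyclin genes, and the part of each in a strain difference cannot be told apart. Bulk arrays cannot tell a larger share of cells with a transcript from more of it per cell.

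Stress genes were at their highest in the first samples of all 4 cultures, fell steeply by about 70 min, and came back late in the mutant cultures. The mean over the 36 members was 13.41 and 13.56 on the first arrays of wild-type cultures 1 and 2, and 13.05 and 13.57 on those of mutant cultures 1 and 2. By 110 min it was 9.67 in wild-type culture 1, and by 118 min 9.80 in wild-type culture 2. Mutant culture 1 reached its lowest mean, 9.74, at 102 min, and mutant culture 2 its lowest, 10.01, at 126 min. On the last arrays the wild-type means were 10.08 and 10.04, while the mutant means were 11.68 in culture 1 and 10.81 in culture 2. The last array therefore stood above both wild-type cultures in each mutant culture, more so in culture 1, and in all 4 cultures it stayed below the first array.

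**Figure D1:**
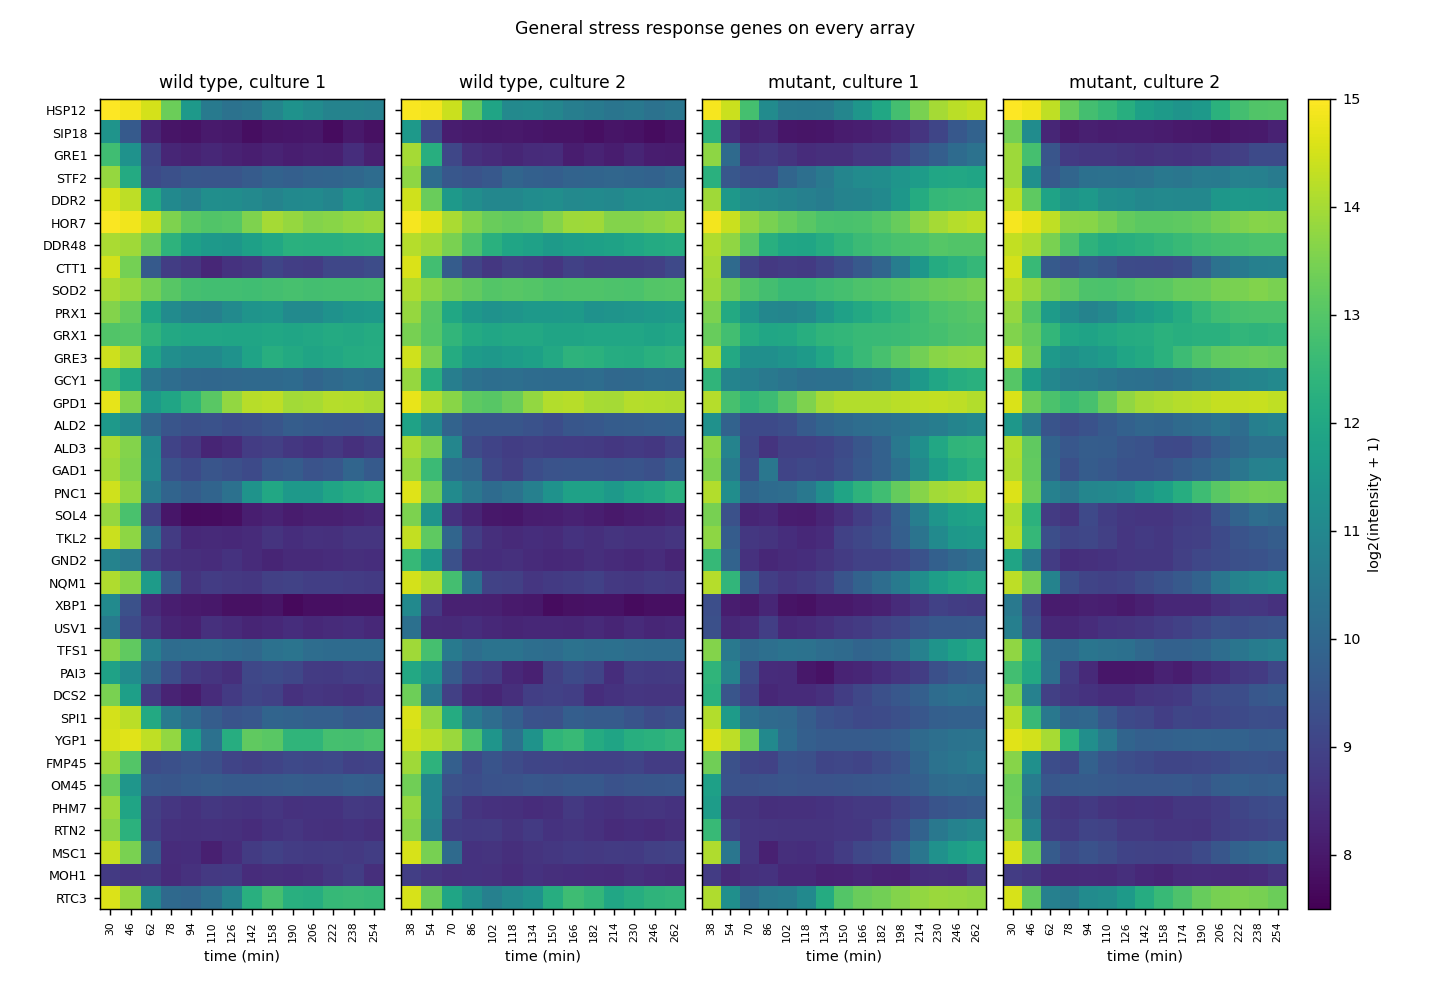
Level of each of the 36 members (rows, grouped by role) on every array, 1 panel per culture, with sampling time in min along the horizontal axis and log2(intensity + 1) as colour. The first columns are bright in all 4 panels for most members, while MOH1 is dim throughout and XBP1 and USV1 are dim in mutant culture 1 (9.31 and 9.32 on its first array), and the right-hand columns brighten again in the mutant panels, more in culture 1 than in culture 2, while YGP1 brightens in the wild-type panels.

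The early fall asked how far the genes came down after release. In the wild type 35 of 36 members fell, with a median of -2.96 on the log2 scale, against 22.4% of all genes called lower, 20.2% called higher and a median of 0.01 over all genes. In the mutant 32 of 36 fell, with a median of -2.34, against 11.1% of all genes called lower and 11.9% called higher. The member outside the wild-type count was MOH1, a protein of the Yippee family, at -0.16. In the mutant MOH1 (-0.34), the hydrophilin gene STF2 (-1.39), the zinc finger factor gene USV1 (-0.90) and the glycerol phosphate dehydrogenase gene GPD1 (-0.15) did not pass. The mutant count dropped to 11 when each culture's first array was left out, and the wild-type count to 29.

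The size of the fall differed widely among the members. TKL2, a transketolase, fell by 5.48 ± 0.33 (SE) in the wild type and fell by 3.81 ± 0.33 in mutant cells (limma adjusted p = 0.0012 and 0.003). CTT1, the cytosolic catalase, changed by -5.12 and -3.62, and MSC1, a gene of unclear function, by -5.43 and -4.23. At the other end SOD2, the mitochondrial superoxide dismutase, changed by -1.05 and -1.0, and GRX1, a glutaredoxin, by -1.17 and -1.05. These last 2 genes started from 13.88 to 13.94 (SOD2) and 12.98 to 13.25 (GRX1) in the wild type and stayed far above background throughout. TKL2, MSC1, NQM1, CTT1 and ALD3, with falls over 5 in the wild type, were below background on 8 of 8 wild-type middle arrays. So were SOL4, RTN2, PHM7, GRE1, GND2, SIP18, XBP1 and USV1, with smaller falls. Signal there can understate a change, so the sizes of these wild-type falls are not measured fold changes.

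For 0 of 36 members was the size of the early fall called different between strains by limma, although 17 had an unadjusted p under 0.05. Among all genes 0% had a more positive change in the mutant and 0.0367% a more negative one. With the sampling grid as a block, 10 members were called with a smaller fall in the mutant and 1, YGP1, with a larger one, against 0.881% and 0.789% of all genes. In the wild-type cultures YGP1 was lowest at 110 and 118 min and then rose inside the middle window, so its difference includes that return. Early levels gave the same picture, with 0 members called, 7 at an unadjusted p under 0.05 and a median mutant-minus-wild-type difference of -0.61, against 0.0734% of genes called higher and 0.0367% lower. That median came mostly from mutant culture 1, since it was -0.13 when that culture was left out and -1.17 when mutant culture 2 was. The mitochondrial outer membrane protein gene OM45 shows the spread, with early levels of 12.34 and 12.17 in the wild-type cultures and 10.57 and 11.97 in the mutant cultures. PHM7, which encodes a membrane protein, read 12.89 and 12.39 against 10.15 and 11.85. For both genes the strains did not overlap, but the mutant cultures lay far apart.

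Timing of the fall was read as the midpoint, the time at which a member had covered the first 0.5 of the way from its first array to its middle level, by interpolation, for members with a fall of at least 1. Its median was 54.4 and 59.2 min in wild-type cultures 1 and 2 (35 members each), and 48.4 min (32 members) and 49.3 min (35 members) in mutant cultures 1 and 2. On the 38 to 262 min grid the mutant reached the midpoint before the wild type in 32 of 32 members. On the 30 to 254 min grid this held in 29 of 32. The same order was found in 87.4% and 88.4% of the 199 other genes that could be timed in every culture. An early midpoint in the mutant was therefore common among falling genes and not limited to the members. GLK1 and TSL1, Msn2 and Msn4 targets outside the member list, also had early falls of at least 1 in every culture. The 199 genes can thus include further stress genes, and whether the order extends beyond the stress response was not tested.

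Within each culture the members did not leave together. STF2 was among the first, with midpoints of 48.3 and 46.9 min (wild type) and 43.5 and 41.0 min (mutant). The repressor gene XBP1 was also early, at 44.7, 48.7, 47.0 and 44.4 min in the same order of cultures. HSP12, a small membrane-associated heat shock protein, was among the last, at 82.2 and 87.0 min (wild type) and 70.1 and 72.2 min (mutant). YGP1, a glycoprotein of the wall, had midpoints of 82.5, 85.4, 78.0 and 76.0 min. DDR48 (69.7, 82.5, 69.8 and 68.0 min) and HOR7 (68.7, 68.0, 65.7 and 65.8 min), both named for the damage or osmotic stress that induces them, were also late. On its first arrays HSP12 read 14.98, 14.94, 14.89 and 14.98, and HOR7 read 14.96, 14.89, 14.86 and 14.90, all close to the highest value of any probe set, 15.04. Whether a ceiling of the scanner shaped the first part of these curves was not tested.

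**Figure D2:**
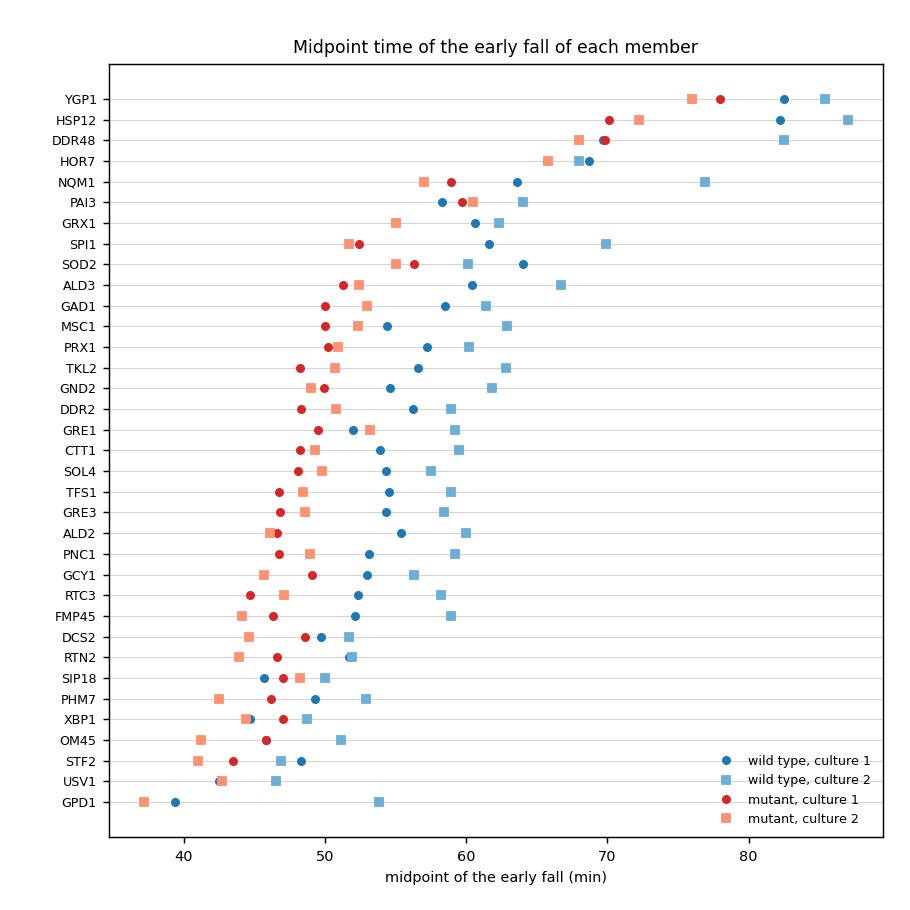
Midpoint time of the early fall in min (horizontal axis) for each member that fell by at least 1 log2 unit from its first array (rows, ordered by mean midpoint), with 1 point per culture. Most members lie between about 40 and 64 min with the mutant points to the left of the wild-type points, and HOR7, DDR48, HSP12 and YGP1 lie later in all cultures.

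The late rise asked whether the genes came back. In the mutant 29 of 36 members rose, with a median of 0.95, against 28.7% of all genes called higher, 36.1% called lower and a median of -0.04. In the wild type 5 of 36 rose (GRE3, GPD1, ALD2, PNC1 and RTC3), with a median of 0.05, against 10.0% of genes called higher and 14.2% lower. The wild-type count was 0 when either wild-type culture was left out, and 15 when mutant culture 1 or mutant culture 2 was, with 2 further members called lower. Both mutant cultures lay above both wild-type cultures in the late rise of 29 of 36 members, against 36.1% of all genes. Tested directly, the late rise was larger in the mutant for 13 of 36 members and smaller for 0, with a median difference of 0.86, and 20 had an unadjusted p under 0.05. Over all genes 20.5% were called with a larger and 21.3% with a smaller late change in the mutant. The 13 became 5 when wild-type culture 1 or wild-type culture 2 was left out, 23 when mutant culture 1 was left out and 34 when mutant culture 2 was. In these last fits the late rise was also called smaller in the mutant for YGP1, and without mutant culture 1 for HOR7 too.

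The mutant cultures differed in how strongly the genes returned. Late rise was larger in mutant culture 1 than in culture 2 in 35 of 36 members, with medians of 1.35 and 0.55. It reached at least 1 log2 unit in 26 members of mutant culture 1 and 8 of mutant culture 2, and in 2 and 1 members of wild-type cultures 1 and 2. The onset, taken as the first array from which a member stayed at least 0.5 above its middle level to the end, existed for 33 members in mutant culture 1 (median 198 min) and 24 in mutant culture 2 (median 206 min). In the wild type it existed for 10 members in culture 1 and 5 in culture 2. Leaving out mutant culture 1 gave 28 members called up in the mutant instead of 29 and 2 called down (SPI1 and YGP1), and leaving out mutant culture 2 gave 35 up and 0 down.

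**Figure D3:**
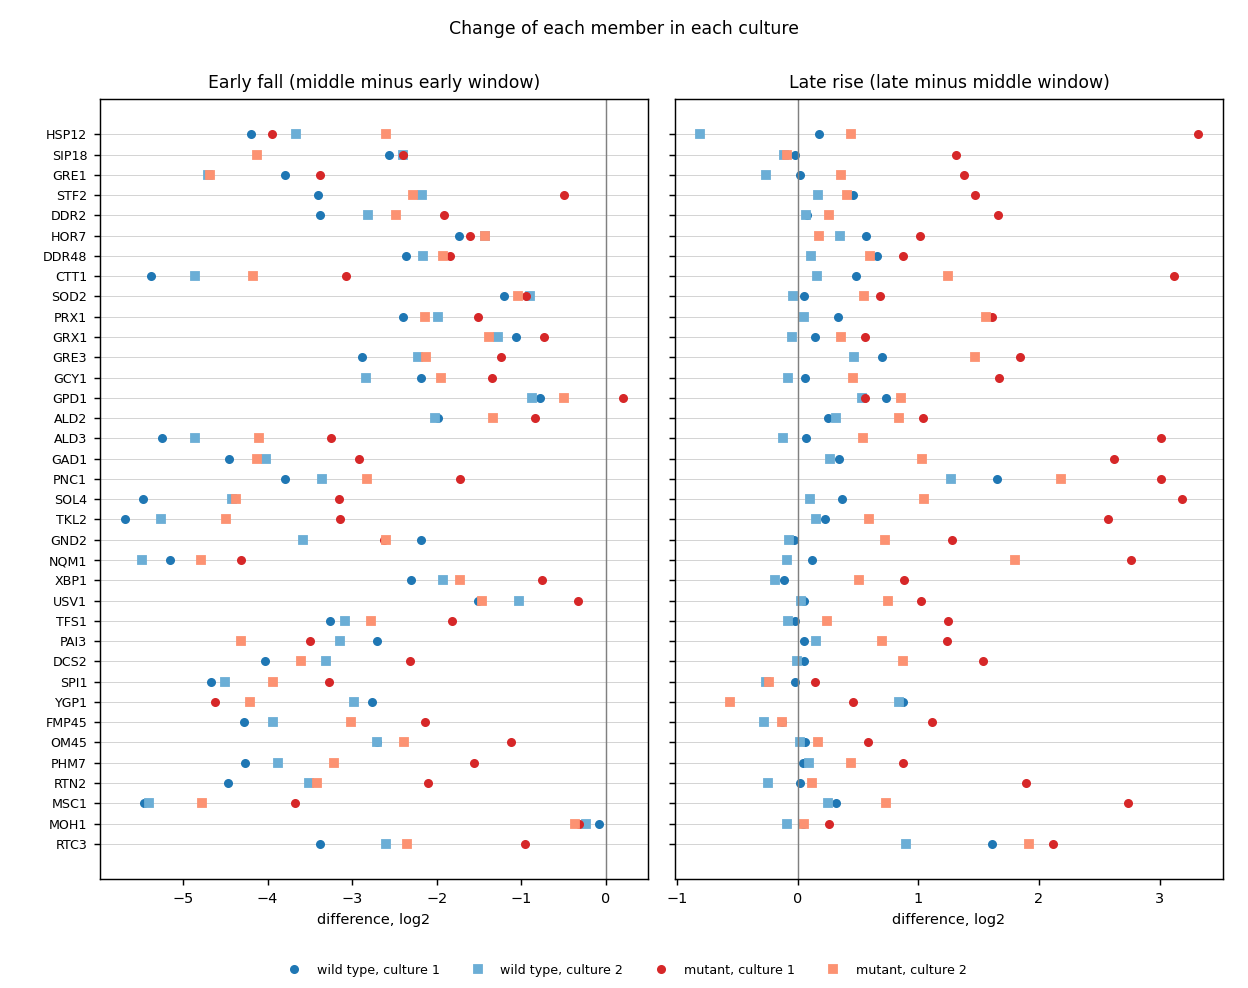
Early fall (left) and late rise (right) of each member, as a log2 difference between window means, with 1 point per culture. Wild-type points of the late rise gather near 0 while mutant points lie to the right for most members, with culture 1 farther right, and GRE3, GPD1, PNC1, RTC3 and YGP1 have wild-type points well above 0.

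Late levels, which include any difference left over from the middle window, were higher in the mutant for 24 members and lower for 1, with a median of 1.09. Among all genes 18.3% were called higher and 14.6% lower at that time. For 11 of the 24, wild-type cultures were below background on all 8 late arrays, so the fitted difference is not a measured fold change of the transcript. Bounds were set with the background of 9.06 against the mean late level of the 2 mutant cultures. That mean was at least 4.73-fold higher for NQM1, 4.02-fold for ALD3, 3.04-fold for SOL4, 2.92-fold for MSC1 and 2.36-fold for TKL2. Mutant culture 2 alone lay nearer background, at 10.86 for NQM1, 10.1 for ALD3, 9.89 for SOL4, 9.87 for MSC1 and 9.47 for TKL2. The bound was 1.62-fold for DCS2, 1.47-fold for GND2, 1.32-fold for GRE1, 1.3-fold for USV1 and 1.16-fold for PHM7. For GRE1 the late mean of mutant culture 2, 9.02, was just below background, so culture 1 alone carries its bound. XBP1 has none because the mutant was below background too. The 24 became 13 and 12 when wild-type cultures 1 and 2 were left out in turn, and 28 and 32 when mutant cultures 1 and 2 were. In the middle window the strains were close, with a median of 0.14, 1 member called higher (STF2) and 2 lower (PAI3 and YGP1), against 2.02% of genes higher and 2.62% lower. None of these 3 calls held when either wild-type culture was left out, and 11 and 7 members were called when mutant cultures 1 and 2 were left out in turn.

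Among the 7 small stress proteins, 5 rose late in the mutant, none did in the wild type, and for 0 was the difference between strains called. HSP12 ended at 10.91 and 10.42 in the late window of the wild-type cultures and at 14.01 and 12.75 in the mutant cultures. The groups did not overlap, and the late level of the mutant exceeded that of the wild type by 2.71 ± 0.40 (limma adjusted p = 0.0066). Its late rise was 3.32 in mutant culture 1 and 0.44 in mutant culture 2, where its level was still coming down in the middle window, and the mean of 1.88 ± 0.68 did not pass (adjusted p = 0.057).

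GRE1 and SIP18 encode hydrophilins, small hydrophilic proteins linked to survival of drying. Late levels of GRE1 were 8.25 and 8.13 in the wild type against 9.90 and 9.02 in the mutant. The difference was 1.27 ± 0.27 (limma adjusted p = 0.019). Only the late mean of mutant culture 1 was above background, while 2 of the 8 late mutant arrays were below it. SIP18 read 7.89, 7.85, 9.29 and 8.04 in the same order, all but mutant culture 1 being below background. STF2, a further hydrophilin linked to the mitochondrial ATP synthase, stood at 9.99 and 9.95 in the wild type against 11.88 and 10.70 in the mutant. That difference of 1.32 ± 0.36 passed (adjusted p = 0.037), and STF2 was also higher in the middle window, by 0.70 ± 0.11 (adjusted p = 0.026).

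DDR2, a gene induced by many stresses, rose in the mutant by 0.96 ± 0.31 (adjusted p = 0.043), with 1.66 in culture 1 and 0.26 in culture 2. DDR48 rose in the mutant by 0.73 ± 0.14 (adjusted p = 0.0071), and its late levels of 12.96 and 12.85 lay above both wild-type levels, of which the higher was 12.28. HOR7 rose in the mutant by 0.60 ± 0.19 (adjusted p = 0.042) against 0.46 ± 0.19 in the wild type (adjusted p = 0.14). Its late levels overlapped between strains, at 13.73 and 13.69 in the wild type against 14.03 and 13.55 in the mutant. For HOR7 the difference in late rise was 0.13 ± 0.27 (adjusted p = 0.72).

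All 4 genes of oxidant defence rose late in the mutant, 0 rose in the wild type, and 3 of the 4 differed between strains. PRX1, the mitochondrial peroxiredoxin, had late rises of 0.33 and 0.05 in the wild type against 1.61 and 1.56 in the mutant. The mutant cultures were nearly equal here, and the difference of 1.40 ± 0.10 passed (limma adjusted p = 0.0023). SOD2 rose by 0.68 and 0.55 in the mutant cultures while the wild-type values were 0.05 and -0.04, a difference of 0.61 ± 0.07 (adjusted p = 0.0049). GRX1 showed the smallest of these differences, 0.42 ± 0.10 (adjusted p = 0.028).

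CTT1 went from middle levels of 8.97 and 9.37 in the mutant cultures to late levels of 12.09 and 10.62. In the wild type it stayed at 8.59 and 8.78 in the middle and 9.07 and 8.95 late. The wild type was below background on 8 of 8 middle and 4 of 8 late arrays, and the mutant on 3 of 8 middle arrays. The sizes of the CTT1 differences are therefore not measured fold changes. In the mutant the late level exceeded that of the wild type by 2.35 ± 0.44 (adjusted p = 0.013), while the difference in rise, 1.86 ± 0.60, fell just short (adjusted p = 0.057) with rises of 3.12 and 1.25 in the 2 mutant cultures. On the last array of mutant culture 1 the CTT1 signal was 12.49, which is below its first array at 38 min.

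**Figure D4:**
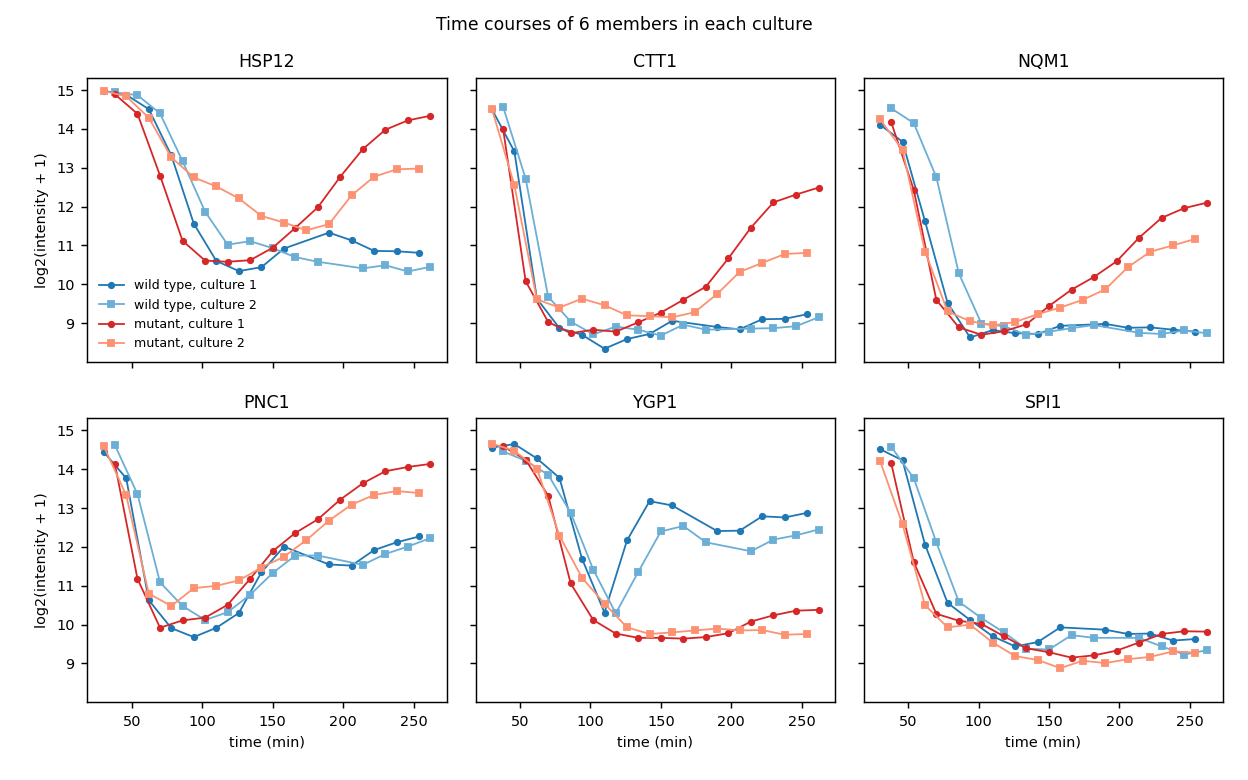
Level of 6 members, log2(intensity + 1), over sampling time in min, with 1 line per culture. HSP12, CTT1, NQM1 and PNC1 return late in the mutant, above the wild type from 206 min on, YGP1 returns from 110 to 150 min in the wild type and stays near 10 in the mutant, and SPI1 stays between about 9 and 10 in all cultures after its fall.

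All 7 members of the group of reductases, aldehyde, glycerol and NAD metabolism rose late in the mutant, and 4 of them rose in the wild type. PNC1, the nicotinamidase that starts the salvage of NAD, rose by 1.65 and 1.27 in the wild-type cultures and by 3.01 and 2.18 in the mutant cultures. Both groups were up and did not overlap, and the difference of 1.14 ± 0.29 passed (limma adjusted p = 0.032). The late level of PNC1 was 11.96 and 11.90 in the wild type against 13.95 and 13.32 in the mutant. Its course in the wild type turned up early, from 9.68 at 94 min to 12.01 at 158 min in culture 1, and then changed little.

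GRE3, an aldose reductase, rose by 0.59 ± 0.10 in the wild type against 1.66 ± 0.10 in the mutant, a difference of 1.07 ± 0.14 (adjusted p = 0.0061). ALD2, a cytosolic aldehyde dehydrogenase, rose by 0.29 ± 0.06 and 0.94 ± 0.06, a difference of 0.65 ± 0.09 (adjusted p = 0.0058). For both genes the cultures of a strain lay close together and apart from those of the other strain. ALD3, the close relative of ALD2, had late rises of 0.07 and -0.12 in the wild type against 3.01 and 0.54 in the mutant, and the difference of 1.81 ± 0.78 did not pass (adjusted p = 0.12). Probes of such similar genes can read both transcripts, and how far these do was not tested.

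GAD1, glutamate decarboxylase, rose by 2.62 and 1.03 in the mutant cultures, and its late level there exceeded that of the wild type by 1.60 ± 0.37 (adjusted p = 0.024). GCY1, an aldo-keto reductase of glycerol metabolism, rose by 1.67 and 0.46 there, with a late difference of 1.32 ± 0.34 (adjusted p = 0.032). GPD1, which makes the precursor of glycerol, behaved unlike the others. Its late levels were 14.10 and 14.10 in the wild type against 14.25 and 14.33 in the mutant, and the late rises of 0.63 ± 0.09 and 0.71 ± 0.09 differed by 0.07 ± 0.12 (adjusted p = 0.65). In wild-type culture 1 GPD1 fell from 14.73 to 11.57 at 62 min and was back at 14.19 by 142 min, and in wild-type culture 2 it went from 13.05 at 102 min to 14.13 at 150 min. Mutant culture 1 went from 12.45 at 70 min to 14.14 at 150 min and mutant culture 2 from 12.62 at 78 min to 14.08 at 158 min, so in each culture most of the return of GPD1 came before the late window.

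The 4 pentose phosphate isoenzymes, which serve the pathway that makes NADPH and ribose, had the largest median late rise of the role groups in the mutant, 1.85, and all 4 rose there. NQM1, a transaldolase, had late rises of 0.12 and -0.09 in the wild type against 2.76 and 1.8 in the mutant. Its late levels were 8.84 and 8.76 against 11.74 and 10.86, so the wild-type cultures were below background while both mutant cultures were far above it. The fitted difference was 2.27 ± 0.31 in rise (limma adjusted p = 0.0064) and 2.50 ± 0.27 in late level (adjusted p = 0.0027). The wild type was below background on all middle and late arrays. Only the bound of 4.73-fold on the mean late level of the mutant can therefore be read as a fold.

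GND2, a phosphogluconate dehydrogenase, rose by 1.28 and 0.72 in the mutant cultures against -0.03 and -0.07 in the wild type, a difference of 1.05 ± 0.18 (adjusted p = 0.011). SOL4, a phosphogluconolactonase, rose by 3.19 and 1.05, and TKL2 by 2.57 and 0.59. The 2 mutant cultures were thus unequal for SOL4 and TKL2, and neither difference in rise passed (1.89 ± 0.68, adjusted p = 0.077, and 1.39 ± 0.62, adjusted p = 0.13). In late level both were higher in the mutant, SOL4 by 2.49 ± 0.46 (adjusted p = 0.012) and TKL2 by 1.69 ± 0.50 (adjusted p = 0.047).

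The main isoenzymes of the same pathway steps gave a contrast. TKL1, the major transketolase, stayed between 13.94 and 14.33 in every window of every culture, and its late rise was 0.08 in the wild type against 0.06 in the mutant. TAL1, the major transaldolase, had late rises of 0.16 and 0.11, neither of which passed. GND1 rose in both strains, by 0.26 and 0.30, with a difference of 0.04 ± 0.09 (adjusted p = 0.74). SOL3 rose by 0.23 and 0.56, and its difference of 0.34 ± 0.07 passed (adjusted p = 0.019). The early fall was called in neither strain for TKL1, TAL1, GND1 or SOL3.

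Other relatives of members varied. DCS1, the scavenger decapping enzyme related to DCS2, rose by 0.47 and 1.32 (difference 0.85 ± 0.16, adjusted p = 0.013), and GRX2, the second glutaredoxin, had a difference of 0.52 ± 0.08 (adjusted p = 0.0089). SED1, a wall protein related to SPI1, rose in the mutant by 1.22 ± 0.06 and differed by 1.02 ± 0.08 (adjusted p = 0.0026). CTA1, the peroxisomal catalase, SOD1, the cytosolic superoxide dismutase, and SPS100, a relative of YGP1, had differences of 0.03, 0.08 and 0.01 that did not pass. YPR1, a relative of GCY1, rose in both strains (0.61 and 0.87). GPD2 fell late in the mutant by 0.26 with a difference of -0.10 that did not pass, and the reticulon gene RTN1 had a difference of -0.27 (adjusted p = 0.017).

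**Figure D5:**
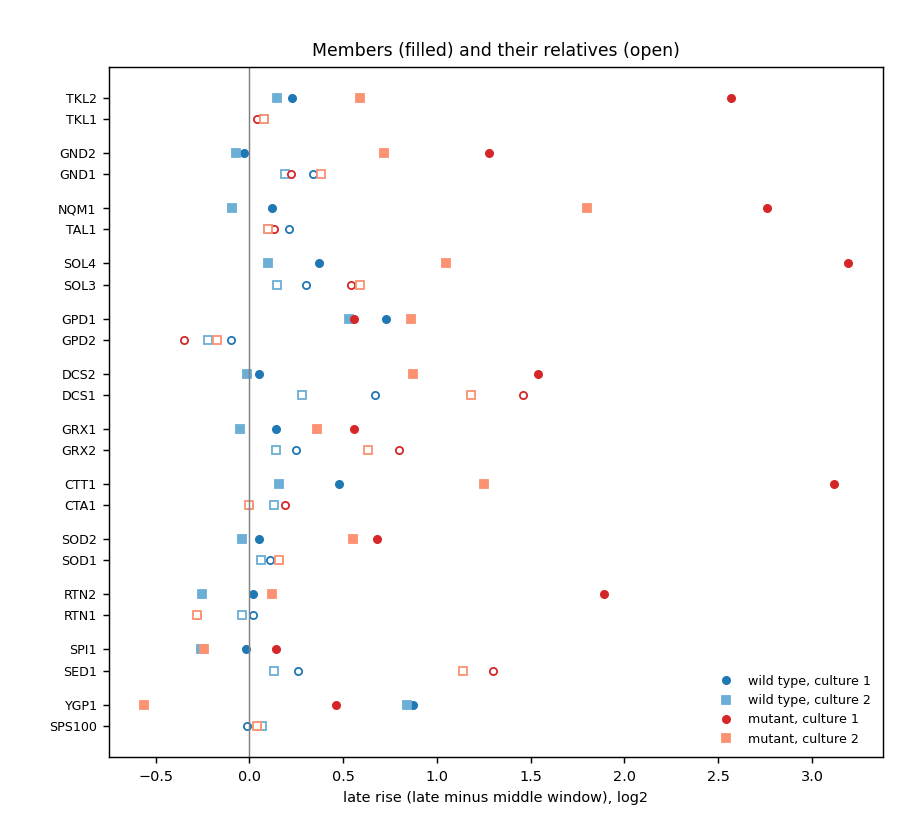
Late rise (late minus middle window, log2) of 12 members (filled points) and a relative of each (open points), with 1 point per culture. TKL1, TAL1, GND1 and SPS100 stay within about 0.4 of 0 in all cultures, SPS100 at levels below background. DCS1, GRX2 and SED1 have both mutant points to the right of both wild-type points, and SED1 does so where its relative SPI1 does not.

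All 5 regulators and inhibitors rose late in the mutant, 0 rose in the wild type, and 4 differed between strains. XBP1, a repressor of G1 cyclin genes, had late levels of 7.82 and 7.80 in the wild type against 8.82 and 8.63 in the mutant, all below the background of 9.06. Its late rise differed by 0.84 ± 0.13 (limma adjusted p = 0.0086), and at such levels the size is a weak guide to the change of the transcript. USV1 rose by 1.02 and 0.75 in the mutant cultures against 0.05 and 0.03, a difference of 0.85 ± 0.10 (adjusted p = 0.0047).

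DCS2, a stress-induced relative of the decapping enzyme DCS1, rose by 1.54 and 0.87 in the mutant against 0.05 and -0.01, a difference of 1.18 ± 0.22 (adjusted p = 0.013). PAI3, an inhibitor of the vacuolar proteinase A, differed in rise by 0.87 ± 0.18 (adjusted p = 0.018) but not in late level (0.30 ± 0.20, adjusted p = 0.29). Its middle levels were 8.13 and 8.07 in the mutant against 8.77 and 8.57 in the wild type, all below background, so the size of the called middle difference (adjusted p = 0.035) is not read here, and neither is that of the difference in rise. TFS1, an inhibitor of carboxypeptidase Y, rose in the mutant by 1.25 and 0.24, and its difference of 0.79 ± 0.32 did not pass (adjusted p = 0.1).

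Of the 6 wall and membrane proteins 2 rose late in the mutant (OM45 and PHM7), and 1 of 6 differed in rise between strains. Over all genes 28.7% rose late in the mutant and 20.5% had a larger rise there, so both counts are near those shares. PHM7 rose by 0.87 and 0.44 in the mutant cultures against 0.04 and 0.09, a difference of 0.59 ± 0.14 (limma adjusted p = 0.027). OM45 rose by 0.58 and 0.17 there, and its difference of 0.34 ± 0.14 did not pass (adjusted p = 0.11). FMP45, a protein of the plasma membrane domains called eisosomes, had late rises of 1.11 in mutant culture 1 and -0.13 in culture 2. RTN2, a reticulon that shapes the endoplasmic reticulum, likewise had 1.89 and 0.12, and for neither gene did the mutant mean pass (adjusted p = 0.17 and 0.076).

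SPI1, a glycosylphosphatidylinositol-anchored wall protein, did not come back. It started at 14.52 and 14.58 on the first wild-type arrays and at 14.15 and 14.22 on the first mutant arrays, and changed by -4.58 and -3.61 in wild type and mutant. Its late levels were 9.69 and 9.42 in the wild type against 9.74 and 9.22 in the mutant, which overlapped. The late rise was -0.14 ± 0.11 and -0.05 ± 0.11, and the difference of 0.09 ± 0.15 did not pass (adjusted p = 0.66).

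YGP1 ran the opposite way. Wild-type culture 1 fell to 10.31 at 110 min and was back at 13.18 by 142 min, and culture 2 fell to 10.29 at 118 min and was back at 12.40 by 150 min. The mutant cultures kept falling, to 9.66 at 150 min in culture 1 and 9.76 at 142 min in culture 2, and ended at 10.38 and 9.76. In the late window YGP1 stood at 12.71 and 12.21 in the wild type against 10.27 and 9.80 in the mutant, with no overlap. The mutant-minus-wild-type difference was -1.52 ± 0.23 in the middle window (limma adjusted p = 0.022), and the late difference was -2.43 ± 0.22 (adjusted p = 0.0015). YGP1 was the only member of the 36 with a late level called lower in the mutant.

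The remaining members were 3 genes of other or unclear function. RTC3, a small protein, rose by 1.61 and 0.90 in the wild-type cultures and by 2.12 and 1.92 in the mutant cultures, and its late level there exceeded that of the wild type by 1.29 ± 0.15 (limma adjusted p = 0.0034). MSC1 rose in the mutant by 2.74 and 0.73 while the wild-type values were 0.32 and 0.25, and its late level was higher by 1.78 ± 0.44 (adjusted p = 0.028). MOH1 read 8.67 and 8.45 late in the wild type against 8.56 and 8.47 in the mutant, below background and overlapping.

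Shared movement of the members late in the course was described by the correlation of each member with the mean of the other 35 from 94 min on. The points of a course share a culture and follow each other in time, so no test is given. The median correlation was 0.96 in mutant culture 1 and 0.86 in mutant culture 2, and 0.58 and 0.29 in wild-type cultures 1 and 2. In mutant culture 1 CTT1, SOL4, TKL2 and ALD3 followed the others most closely (1.00 each), and SPI1 least (0.30). SPI1 (-0.08), SIP18 (-0.17) and YGP1 (-0.40) were the members that ran against the others in mutant culture 2. In the wild type GRE3, HOR7, MSC1, PNC1, RTC3 and SOL4 kept correlations of 0.78 to 0.99 in both cultures. XBP1 (-0.64 and -0.74) and FMP45 (-0.70 and -0.73) were among those that ran against the rest there. Of these genes MSC1, SOL4 and XBP1 were below background on all middle and late wild-type arrays. FMP45 was so on 4 of 8 middle and 6 of 8 late ones. SIP18 read 8.14 and 8.04 in the middle and late windows of mutant culture 2, also below background. Correlations at such levels are a weak guide to the transcript.

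Some members are neighbours in the genome. ALD3 and ALD2 lie side by side on chromosome XIII, as do DDR48, PAI3 and SIP18, with EAR1 and HOT1 between ALD2 and DDR48. GAD1 and HOR7, on the same chromosome, have only GTO3 between them. In mutant cultures 1 and 2 the late rise was 1.04 and 0.84 for ALD2 and 3.01 and 0.54 for ALD3. It was 0.87 and 0.60 for DDR48, 1.24 and 0.70 for PAI3 and 1.31 and -0.09 for SIP18. For GAD1 it was 2.62 and 1.03, and for HOR7 1.01 and 0.18. The values overlapped for ALD2 and ALD3 and among DDR48, PAI3 and SIP18, but not for GAD1 and HOR7. No difference between neighbours was tested.

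The regulators of these genes moved in both directions. Of 25 measured regulators, 11 rose and 9 fell late in the mutant, with a median of 0.10, and 6 changed more upward and 8 more downward than in the wild type. Over all genes 28.7% rose and 36.1% fell late in the mutant, and 20.5% and 21.3% differed upward and downward, so the shares that fell and that differed upward are near those of all genes. MSN4 rose in the mutant by 0.28 (difference 0.37 ± 0.05, limma adjusted p = 0.0069), whereas MSN2 fell by 0.46 (difference -0.29 ± 0.07, adjusted p = 0.023). YAK1, a kinase that acts against protein kinase A, rose in both strains, by 0.39 and 0.75, after an early fall of 1.36 in the wild type. BCY1, the inhibitory subunit of protein kinase A, differed by 0.51 ± 0.06 (adjusted p = 0.0046), and WHI2, a stress response activator, by -0.45 ± 0.06 (adjusted p = 0.007). HOG1, the kinase of the osmotic pathway, and YAP1, the oxidant-sensing factor, differed by 0.24 and 0.26 (adjusted p = 0.031 and 0.023). RIM15, a kinase of the entry into quiescence, had a difference of -0.02 (adjusted p = 0.81), and PSR2, a phosphatase, one of 0.38 (adjusted p = 0.048). Transcript levels do not show the activity or location of these proteins, which was not measured.

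Genes outside the 36 that belong to related programmes were counted in the same fit. Late in the mutant 28.7% of all genes rose and 36.1% fell, and 10.0% rose late in the wild type. The shares of all genes that differed upward and downward were 20.5% and 21.3%. All 15 other Msn2 and Msn4 targets rose late in the mutant (median 1.52), 5 of them also in the wild type, and 9 of 15 differed between strains. HSP42, a small heat shock protein, differed by 2.03 ± 0.14 (limma adjusted p = 0.0021), HXK1, a hexokinase, by 1.94 ± 0.52 (adjusted p = 0.036), and TSL1, of trehalose synthesis, by 1.68 ± 0.59 (adjusted p = 0.073). Of 9 osmotic and glycerol genes 6 rose and 1 fell in the mutant, and 4 differed upward and 1 downward. STL1, a glycerol importer, and GUT2, the mitochondrial glycerol phosphate dehydrogenase, had differences of 1.22 and 0.98 (adjusted p = 0.021 and 0.0091), and GUT1, glycerol kinase, one of -0.75 (adjusted p = 0.0022). Of 12 Yap1 oxidant genes 2 differed upward and 1 downward, OYE3 by 1.11, the thioredoxin gene TRX2 by 0.38 and the transporter gene ATR1 by -0.41, shares no higher than the 20.5% and 21.3% of all genes. No test was made between these lists.

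Ribosome biogenesis genes, which are known to move against stress genes in yeast, were counted beside them. In the wild type 14 of 15 rose between the early and middle windows (median 0.91), and 2 of 15 did so in the mutant (median 0.39). Over all genes 20.2% and 11.9% were called higher there, so the mutant count is near the share of all genes. Late in the course all 15 fell in the mutant (median -0.46), 2 of 15 fell in the wild type, and 11 of 15 had a more negative change in the mutant. The shares of all genes were 36.1%, 14.2% and 21.3% in the same order, so the wild-type count is near its share. MAK16 and RLP7, which serve assembly of the large ribosomal subunit, and NOP56, which serves modification of ribosomal RNA, had differences of -0.51, -0.49 and -0.49 (limma adjusted p = 0.0067, 0.0079 and 0.0068).

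Markers of mating type also moved. Of 7 a-specific genes, the class that MATa cells express, 5 fell in the mutant between the early and middle windows (median -0.97), and in the middle window 4 were lower in the mutant and BAR1 was higher. Between the middle and late windows 5 fell in the mutant and 4 rose in the wild type, and 6 of 7 had a more negative late change in the mutant. The shares of all genes were 11.1% for the early fall in the mutant, and 2.62% lower and 2.02% higher in the middle window. For the late counts they were 36.1%, 10.0% and 21.3% in the same order. MFA2 and MFA1, the a-factor genes, had differences of -2.95 and -2.15 (limma adjusted p = 0.0002 and 0.002), and STE6, the a-factor exporter, one of -0.99 (adjusted p = 0.002). The summed level of the 7 ranged from 14.93 to 15.85 on wild-type arrays and from 13.23 to 15.94 on mutant arrays. STE2, the alpha-factor receptor that MATa cells make, was above background on 58 of 58 arrays. Of 4 alpha-specific genes 1 rose and 1 fell late in the mutant, against 28.7% and 36.1% of all genes. STE3, the a-factor receptor, had a difference of 0.34 (adjusted p = 0.013) but lay above background on 0 arrays, MF(ALPHA)1 one of -0.51 (adjusted p = 0.03), and SAG1, which was above background on 58 arrays, one of -0.20 that did not pass. The summed alpha-specific level was 10.97 to 12.31 on wild-type arrays and 11.30 to 11.98 on mutant arrays. Of 8 meiosis genes 3 rose and 1 fell late in the mutant, with differences of 0.40 for NDT80, 0.27 for IME2 and 0.26 for SPS1, of which SPS1 did not pass. These 3 genes were above background on 7, 14 and 0 of 58 arrays, and a share of 3 in 8 is near the 28.7% of all genes that rose. Their summed level was 11.93 to 12.47 on wild-type arrays and 11.89 to 12.84 on mutant arrays. The part of these shifts in the stress gene result was not tested.

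RNA quality was followed by the difference between the 3′ and 5′ control probe sets of ACT1, the actin gene, on the log2 scale. It was 0.46 and 0.41 in the early window of the wild-type cultures, and 0.37 and 0.48 in that of the mutant cultures. In the late window it was 0.24 and 0.30 in wild-type cultures 1 and 2, and 0.49 and 0.37 in mutant cultures 1 and 2. The middle window had 0.24 and 0.28 in wild-type cultures 1 and 2, and 0.41 and 0.32 in mutant cultures 1 and 2. Mutant values thus lay above those of the wild type in the middle window as well as in the late one. In both windows the higher mutant value was that of culture 1, which also had the larger late rise. The part of this strain difference in the late rise was not tested.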

How the data were processed

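RNA of 58 samples, each a time point of a culture, was labelled with the GeneChip One-Cycle kit and read on Affymetrix arrays, per the labels' protocols. As deposited by the authors, the table holds 10928 probe sets as intensity on a linear scale (86.1 to 33787.1). Software named in the submitters' processing notes is affy 1.8.1, and the background correction, summary and scaling are not given in the sources used here. No genome build is named, so no coordinates or sequences are given. The R64 annotation served for names and neighbours only.

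Of 7245 probe sets in the platform's name table, 5498 were named to R64 genes, which gave 5449 genes, and the brightest probe set was kept for 47 genes with several. Each of the 36 members has 1. The background of 9.06 is the 95th percentile of 1746 probe sets named to other genes, and 4856 genes had a mean above it. The members, lists and windows were chosen with earlier results of these data known. The text names all members, their relatives, a set of regulators and the 3 genes of each list with the largest difference in late rise.

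Culture values were fitted in R 4.3.3 with limma 3.58.1 as strain means over the 4 cultures, with pseudocount 1, and adjusted by Benjamini-Hochberg over 5449 genes. The series design calls the 2 cultures of a strain biological replicates, and their number limits the precision, since arrays carry no read depth. Fits that leave out a culture assume that the lone culture varies like those of the other strain. Simulated data took the spread of all 5449 genes, with the changed genes drawn at random from all of them. There the test of the difference in late rise recovered 61 of 100 genes changed by 0.5 log2 units. It recovered 92 of 100 genes changed by 1, with 4 false calls. Recovery among the members alone was not simulated, and their SE of this difference reached 0.96 (HSP12). Deviations of equally numbered cultures from their strain means correlated at -0.17 for the early fall and 0.28 for the late rise, and the numbers were not taken as pairs. Alternatives covered the pseudocount, centring, quantile normalization, probe set averaging, the background filter, the window limits, limma's trend, blocks and each culture left out.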

Additional observations from a re-analysis of the deposited data

Results flagged for a closer look

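For 13 members the change from the middle to the late window differed between the strains in the test of the difference itself (limma, adjusted over all genes), and in each of the 13 both mutant cultures lay above both wild-type cultures. The differences, mutant minus wild type on the log2 scale, were 2.27 for NQM1, 1.40 for PRX1, 1.18 for DCS2, 1.14 for PNC1, 1.07 for GRE3 and 1.05 for GND2. They were 0.87 for PAI3, 0.85 for USV1, 0.84 for XBP1, 0.65 for ALD2, 0.61 for SOD2, 0.59 for PHM7 and 0.42 for GRX1. Of these, XBP1 was below background in both windows in both strains. For 5 of the 13 (GND2, NQM1, XBP1, USV1 and PHM7) the wild type was below background on all middle and late arrays, and for DCS2 and PAI3 on all but 1, so the size of these differences is not a measured fold change. The 20.5% of all genes called in this direction stand as the background of the count. Both mutant cultures lay above both wild-type cultures in 36.1% of all genes. With 2 cultures per strain a call mostly goes with that order, so the order is no separate evidence. The larger differences of HSP12 (2.20), SOL4 (1.89), CTT1 (1.86) and ALD3 (1.81) did not pass, and in each of these 4 genes the late rise of mutant culture 1 was at least 1.5 log2 units above that of mutant culture 2.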

How the results depend on the processing

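No called member turned direction under the alternatives. The count of members that fell in the mutant was 11 without each culture's first array. With a replicate block, the count with a larger late rise in the mutant was 21 and the count called in the middle window was 7. Arrays with culture as a random block gave 21 for the larger late rise. The other counts of members stayed within 1.5 times with the replicate block. Leaving out a culture in turn gave 0 to 15 members rising in the wild type, 5 to 34 with a larger rise in the mutant, 0 to 11 called in the middle window and 12 to 32 higher late in the mutant. The cause was not tested, apart from the fewer cultures left.

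Counts over all 5449 genes moved more. For the early fall, the 2323 genes called in wild-type and 1253 in mutant cultures became 695 and 570 without the first arrays, 1407 and 638 with the replicate block and 3841 and 3056 with the random block. The 2 genes called for the difference in fall became 91 with the sampling grid block, 694 with the random block and 0 with several settings. For the late rise of the wild type, 1320 became 663 with the sampling grid block and 671 with the random block. Centring arrays on their median turned its 547 higher and 773 lower genes into 668 and 524. The 6 genes called in the early window became 319, and the 253 in the middle window 653, with the random block. The 6 also became 12 without the first arrays, 10 with limma's trend, 13 with the sampling grid block and 0 with the replicate block. Leaving out cultures in turn gave 463 to 2710 (early fall, wild type), 552 to 1727 (early fall, mutant), 0 to 2094 (late rise, wild type), 593 to 2622 (difference in late rise), 0 to 5 (early level), 46 to 1261 (middle level) and 416 to 3209 (late level, main count 1794). For 15 members the wild type was below background on all late arrays, which limits what a strain difference shows.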
